A study of Mus musculus with 6 samples.

Results

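The histone cluster genes are the clustered genes that encode the linker histone H1 and the core histones H2A, H2B, H3 and H4. They were taken as every row of the deposited gene table whose name begins with Hist1h, Hist2h, Hist3h or Hist4h, which gave 70 members of 53618 named genes. The names hold 6 linker histone genes (H1) and 64 core histone genes, namely 20 of H2A, 19 of H2B, 12 of H3 and 13 of H4. GENCODE vM21 classes 67 of them as protein coding and the others as pseudogenes. Of the 70 members, 57 had at least 1 read in the 6 libraries and 13 had none. A value of at least 10 in at least 3 libraries was reached by 46 members, which were tested, and no member passed through the libraries of 1 group alone.

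The study asked how loss of 1 Usp18 allele alters gene expression in AE9a leukemia cells of the mouse. Usp18 encodes an ISG15-specific protease that restrains interferon signaling, and AE9a, a truncated form of AML1-ETO, causes acute myeloid leukemia in mice. Bulk RNA-seq was available for 6 libraries of splenocytes sorted as GFP+ Lin- c-Kit+ from recipients of AE9a cells of genotype Usp18+/f UBCER-Cre, 1 library per mouse. The 3 control mice received oil (Usp18+/f) and the 3 others received tamoxifen (Usp18+/Δ), and cells were sorted 3 days after the first injection. All 6 libraries therefore derive from cells that carried the floxed allele, the tamoxifen-inducible Cre and the retroviral AE9a with its GFP. Oil-treated mice received no tamoxifen, so drug and deletion cannot be told apart. Per the study's methods the mice were young adults of both sexes.

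Replication-dependent histone genes are expressed mainly in S phase, when newly made DNA is packed into nucleosomes. Their mRNAs lack introns and end in a conserved stem-loop that the stem-loop binding protein SLBP recognizes, and most carry no poly(A) tail. Some members, among them Hist1h1c and Hist1h2bc, are also made as polyadenylated mRNA in cells that do not divide. How the RNA was selected before sequencing (poly(A) capture or removal of ribosomal RNA) is not given in the sources used here, so the level of a member may depend on the share of its mRNA with a poly(A) tail, which was not measured.

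The 3′ ends of the annotated transcripts are shown first because they bear on which mRNAs end in the stem-loop and which can be polyadenylated. A stem-loop of 16 bases was found within 150 bases after the stop codon in 43 of the 52 members with an annotated stretch long enough to search. It began 21 to 58 bases after the stop codon (median 31). The other 18 members have no such stretch in the GENCODE vM21 transcript used. In the sequences below (GRCm38, 5′ to 3′), capitals mark both arms of the stem and lower case the loop.
Hist1h1c, chr13:23739512-23739527, plus strand: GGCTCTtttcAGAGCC
Hist1h3c, chr13:23745047-23745062, minus strand: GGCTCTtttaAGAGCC
Hist2h2ac, chr3:96220418-96220433, minus strand: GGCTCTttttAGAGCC
Hist1h4d, chr13:23581950-23581965, plus strand: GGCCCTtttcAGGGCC
Hist1h4i, chr13:22040966-22040981, minus strand: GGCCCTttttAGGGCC
Hist1h4j, chr13:21735437-21735452, plus strand: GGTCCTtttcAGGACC
These were the 6 distinct forms. The first form was carried by 3 members of H1, 10 of H2A, 7 of H2B and 5 of H3. All 11 H4 members with a stem-loop carried one of the last 3 forms, whose stems differ from those of the other families, and no member outside H4 did.

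Of the 9 members with a searchable stretch and no stem-loop found, 5 were H2B genes. Hist2h2be, with 2192 annotated bases after its stop codon, and Hist1h2bc, with 742 bases and 2 exons, were among them. Hist1h2bc, Hist1h2bp, Hist1h2bq and Hist1h2br were searched in spliced transcripts of 2 or 3 exons. A stem-loop in an unspliced form of these genes would be missed. A poly(A) signal (AATAAA or ATTAAA) lay in the last 50 annotated bases of 16 members, Hist2h2be, Hist1h1c and Hist1h4i included, and 12 of those 16 carried a stem-loop as well. Hist1h1c, whose annotated stretch of 880 bases runs past its stem-loop, thus holds both signals. No poly(A) signal lay at the annotated end of Hist1h2bc.

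Promoters were examined because the H2B members, and the H1 and H3 members, had like patterns over the libraries, as described further on. RefSeq promoters (GRCm38.p6, 250 bases before to 50 bases after the start) were matched for 61 members. Each was searched on both strands for 4 motifs known from histone promoters. The TATA box was searched as TATAAA at any position, so a match need not be a TATA box in use. The CCAAT box was searched by the letters of its name. The octamer, a site for OCT factors, was searched as ATTTGCAT. The H1 box of linker histone genes was searched as AAACACA. In the promoters printed here no match overlaps a match of another motif. The promoters of Hist1h1c, Hist1h2bb and Hist1h4i, from a linker histone gene, an H2B gene and an H4 gene that hold different sets of these motifs, are printed in lower case with each motif match in capitals on either strand.
Hist1h1c promoter, chr13:23738557-23738856, plus strand: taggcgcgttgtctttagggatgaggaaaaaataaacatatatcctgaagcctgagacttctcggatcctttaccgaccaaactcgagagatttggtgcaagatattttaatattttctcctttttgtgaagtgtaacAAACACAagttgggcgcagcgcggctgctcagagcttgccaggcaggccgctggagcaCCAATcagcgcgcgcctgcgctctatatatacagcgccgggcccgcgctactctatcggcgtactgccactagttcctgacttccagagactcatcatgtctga
Hist1h2bb promoter, chr13:23746484-23746783, plus strand: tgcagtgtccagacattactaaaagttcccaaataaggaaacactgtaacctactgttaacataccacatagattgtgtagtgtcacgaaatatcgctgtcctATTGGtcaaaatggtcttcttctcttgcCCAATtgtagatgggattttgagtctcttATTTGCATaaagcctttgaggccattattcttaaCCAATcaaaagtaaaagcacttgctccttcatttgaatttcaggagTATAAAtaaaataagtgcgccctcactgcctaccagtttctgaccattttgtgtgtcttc
Hist1h4i promoter, chr13:22041313-22041612, minus strand: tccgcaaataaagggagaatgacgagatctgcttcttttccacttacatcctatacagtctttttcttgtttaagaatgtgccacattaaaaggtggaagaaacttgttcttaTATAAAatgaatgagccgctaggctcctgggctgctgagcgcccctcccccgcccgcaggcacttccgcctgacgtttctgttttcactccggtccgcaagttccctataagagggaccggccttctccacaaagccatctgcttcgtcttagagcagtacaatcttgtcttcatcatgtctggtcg
The CCAAT box was present in every matched promoter of H1 (6), H2A (17), H2B (16) and H3 (10) but in only 3 of the 12 matched H4 promoters, against 37.4% of all 32851 promoters. The octamer was found in 41.2% of H2A and 37.5% of H2B promoters, in no promoter of H1, H3 or H4, and in 1.74% of all promoters. The H1 box was found in 83.3% of H1 promoters and 7.18% of all promoters. TATAAA was found in 57.4% of the members' promoters and 13.6% of all. H2A and H2B genes often lie head to head, so that promoters of such a pair hold partly the same bases and do not count as independent.

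**Figure D1:**
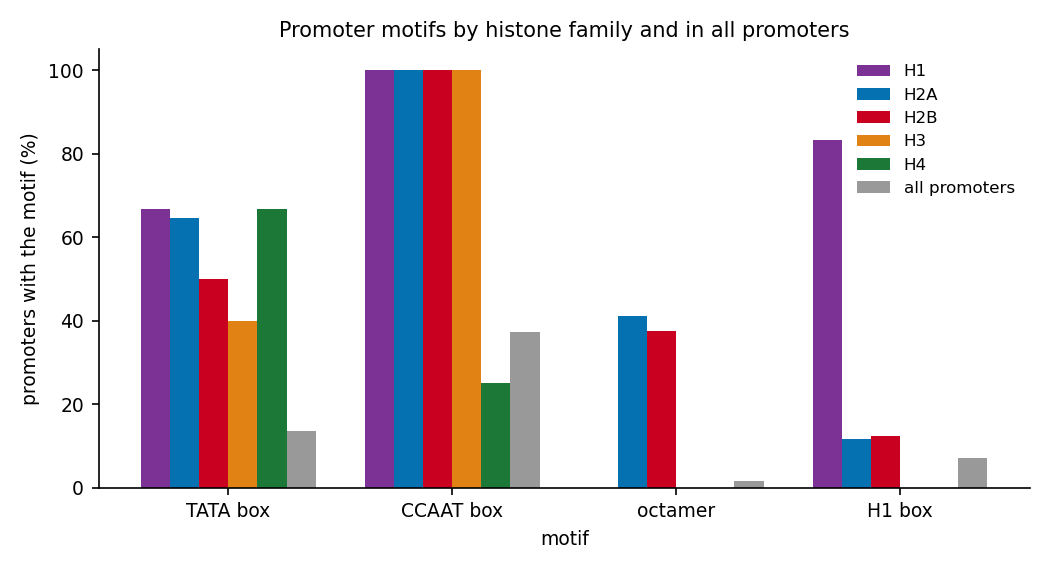
Share of promoters (%) that hold each of 4 motifs on either strand, by histone family (colours) and in all 32851 RefSeq promoters (grey). Bars show the CCAAT box in 100% of the H1, H2A, H2B and H3 promoters and 25% of the H4 promoters, and the octamer in H2A and H2B alone among the families.

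The members lay in few places. On chromosome 13 they formed 3 blocks, of 19 members at chr13:21715763-21837530, 5 at chr13:22035164-22043676 and 31 at chr13:23531050-23934851. A further 10 lay at chr3:96219865-96270132, 3 at chr11:58948920-58956830 and 1 (Hist4h4) on chromosome 6, while the pseudogene Hist1h2al lay apart on chromosome 13. In 25 members more than 50% of the 150-base windows of the transcripts occur unaltered in another GENCODE gene, 12 of these being H2A genes. All 5 members with every window shared (Hist2h2aa1, Hist2h2aa2, Hist2h3b, Hist2h3c1 and Hist2h2bb) had 0 reads. The authors' handling of reads that match several places, and of strand, is not given in the sources used here, so levels of near-identical copies are uncertain and a value of 0 for them does not show that the gene was silent.

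**Figure D2:**
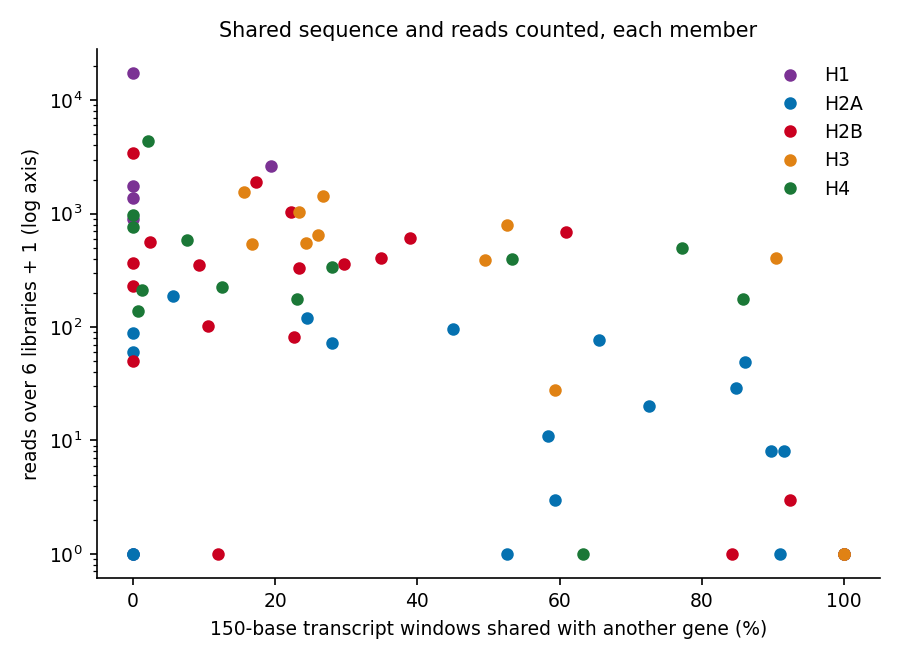
Reads summed over the 6 libraries, plus 1, on a log axis, against the share of 150-base transcript windows (%) that occur in another gene, each point 1 member coloured by family. H1 members lie at 19.5% or less, H2A members spread to the right with few reads, and the 5 members at 100% lie on the line of no reads.

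Not every member without reads was a copy. Hist1h1t, Hist1h2ba and Hist1h2aa, known as testis histone genes, shared 0%, 11.9% and 0% of their windows and had 0 reads in all 6 libraries. With 3 reads as the limit that a count of 0 allows, this bounds each at a value of 2.69 to 3.83 depending on the library, for counting error alone. The other members without reads were Hist2h2ab, Hist1h2ap, Hist1h2br, Hist1h4b and Hist1h2al. The 11 members that had reads but were not tested were mostly H2A genes, and the highest single value among them was 19.3, of Hist2h2ac.

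Libraries held 19172471 to 23785143 reads in genes. The library tamoxifen 1 stood apart: mitochondrial genes held 0.00923% of its reads against 1.01% to 1.56% in the other 5, and it lay above all 5 others for 41.1% of the 12298 tested genes and below all 5 for 41.6%. The main comparisons are therefore given with and without it. Usp18 did not follow the labels, with values of 217, 214 and 176 in oil 1 to 3 and 477, 329 and 284 in tamoxifen 1 to 3 (log2 fold change 0.81, SE 0.25, adjusted p = 0.666 by limma). Whole-gene values include transcripts that lack a deleted exon, so the deletion is not checked by this, and directions below compare the labelled groups, tamoxifen with oil. Kit, the sorted marker, was at 4687 to 10976, while Ptprc (CD45), a general leukocyte marker, was at 0.898 to 8.08 in all libraries. Erythroid genes were abundant, with Hba-a1 at 19942 to 32731 in oil and 25700 to 57514 in tamoxifen and Klf1 at 5248 to 5794 and 4942 to 11837. T, B and NK cell markers were at or near 0, with Cd79a highest at 8.18. Markers of macrophages and neutrophils were low but higher in the libraries labelled tamoxifen. The 3 macrophage markers summed to 28.9 to 40.4 in oil and 54.6 to 100 in tamoxifen, with Adgre1 at 0.929 to 6.75 and 3.83 to 11.1, and the 3 neutrophil markers summed to 1.86 to 4.82 and 13.6 to 32.3, with Ly6g at 0 throughout. The part of these cells in the results below was not tested.

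Most of the histone cluster reads came from few members. Hist1h1c, which encodes the linker histone H1.2, held 33.9% of the members' summed mean value, and the next 4, Hist1h4i, Hist2h2be, Hist1h1e and Hist1h2bc, brought this to 57.7%. This order pools all 6 libraries, and in oil alone Hist2h2be (mean 726) was above Hist1h4i (mean 694). Per kilobase of coding sequence, the mean level over 6 libraries was 4572 for Hist1h1c, 2348 for Hist1h4i, 1434 for Hist2h2be, 815 for Hist1h2bc, 699 for Hist1h1e and 623 for Hist1h3c. Per kilobase of all annotated exons, Hist1h1c (1873) and Hist1h4i (1008) were again the highest, followed by Hist1h3c (407), while Hist2h2be (209) ranked 13 because its annotated transcript is long. Together the 70 members held 0.0296% to 0.0509% of all reads, with tamoxifen 1 highest and tamoxifen 2 lowest.

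The comparison of tamoxifen with oil showed lower H2B in every library labelled tamoxifen, while the sums of H1, H3 and H4 were on average lower in tamoxifen 2 and tamoxifen 3 and highest in tamoxifen 1. Summed over its 19 members, H2B stood at 1877, 2316 and 2133 in oil 1 to 3 and at 1039, 1440 and 1346 in tamoxifen 1 to 3. The groups did not overlap (mean 2109 ± 221 against 1275 ± 210, SD, n = 3 each; log2 ratio -0.73, and -0.60 without tamoxifen 1). H2A sums were small, at 137, 171 and 137 against 153, 113 and 96.4, and overlapped. H3 sums were 896, 1490 and 1270 in oil against 2184, 765 and 871, so that tamoxifen 1 was the highest of the 6 libraries and both others lay below the whole oil range.

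The sums of H4 were 1328, 1715 and 1478 in oil and 2073, 1186 and 1053 in tamoxifen, again with tamoxifen 1 highest and both others below the oil range. H1 sums were 3090, 4467 and 3682 against 7011, 2918 and 3240. Without Hist1h1c the other 5 H1 genes summed to 800, 1318 and 1169 against 2263, 673 and 655. In tamoxifen 2 and tamoxifen 3 the mean was thus below that of oil by 34.0% for H2B, 32.9% for H3, 29.3% for H2A, 25.7% for H4 and 17.8% for H1, the last being 39.4% with Hist1h1c left out. Counts here are of bulk RNA, in which fewer cells in S phase and less histone mRNA per cell cannot be told apart.

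**Figure D3:**
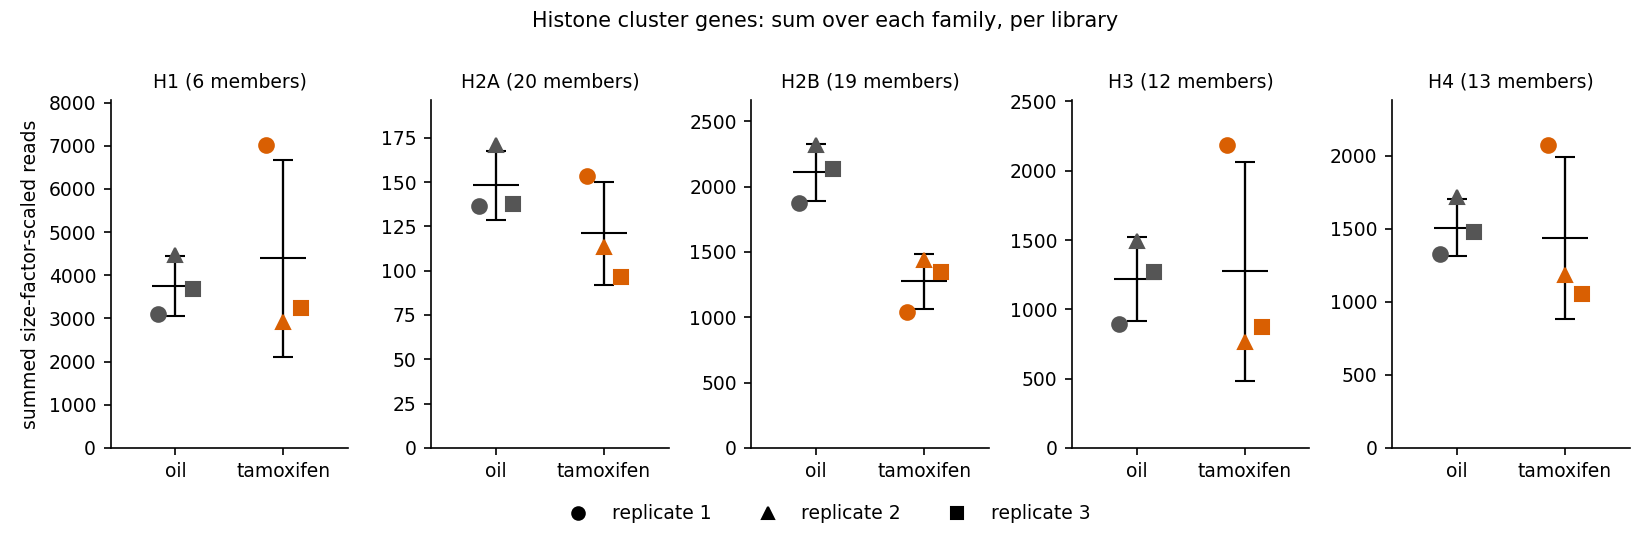
Summed values (reads divided by the authors' size factors) of each histone family in the 3 libraries labelled oil (grey) and the 3 labelled tamoxifen (orange), each symbol 1 library, with the mean (long dash) and SD (bars). H2B is the family whose groups do not overlap, and tamoxifen 1 (orange circle) is the highest library for H1, H3 and H4 and the lowest for H2B.

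Gene by gene, limma called no member at an adjusted p of 0.05 with all 6 libraries, nor any other of the 12298 genes tested (0%), and each tested member had an adjusted p of 0.666 or more. Without adjustment 12 of the 46 tested members (26.1%) fell below a p of 0.05, all lower in tamoxifen, against 1.24% of all tested genes lower and 3.23% higher. By edgeR and by DESeq2 the adjusted count of members was also 0, while DESeq2 called 71 genes in all and edgeR 0. At an unadjusted p under 0.05, edgeR had 9 of 46 members lower, against 0.87% of genes, and DESeq2 12 of 57, against 0.652%. The log2 fold change lay below 0 for 35 of 46 members, against 6340 of all 12298 tested genes. Its median was -0.48 for 41 tested core members, -0.07 for 5 tested linker members (0.28 with edgeR and 0.27 with DESeq2) and -0.02 for all tested genes.

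Counted by groups that do not overlap, 17 of the 53 members with at least 10 reads in total (32.1%) were lower in every tamoxifen library than in any oil library, against 8.26% of 16384 genes. No member was higher in every tamoxifen library, against 8.07% of genes. The 17 comprised 9 of H2B, 5 of H4, 3 of H2A and none of H3 or H1.

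Without tamoxifen 1, 26 of 46 members (56.5%) fell below an unadjusted p of 0.05, all of them lower, against 6.06% of genes lower and 6.04% higher. These were 11 H2B, 7 H4, 4 H1, 2 H2A and 2 H3 members, and they included all 12 of the fit over 6 libraries. The median log2 fold change was then -0.60 for core and -0.63 for linker members. Of the 46 members 43 lay below 0, against 6791 of all 12298 tested genes. Still no member passed an adjusted p of 0.05 (0.333% of genes did), the smallest being 0.0728. Of 53 members, 28 (52.8%) had groups that did not overlap in the lower direction, against 14.3% of genes. With limma's weights per library, which gave tamoxifen 1 a weight of 0.0377, 10 members passed the adjusted threshold, all lower, against 2.54% of genes. With DESeq2 after leaving out tamoxifen 1, which was chosen after seeing the data, Hist2h2be, Hist1h2bj and Hist1h3c passed, against 0.41% of genes called lower.

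**Figure D4:**
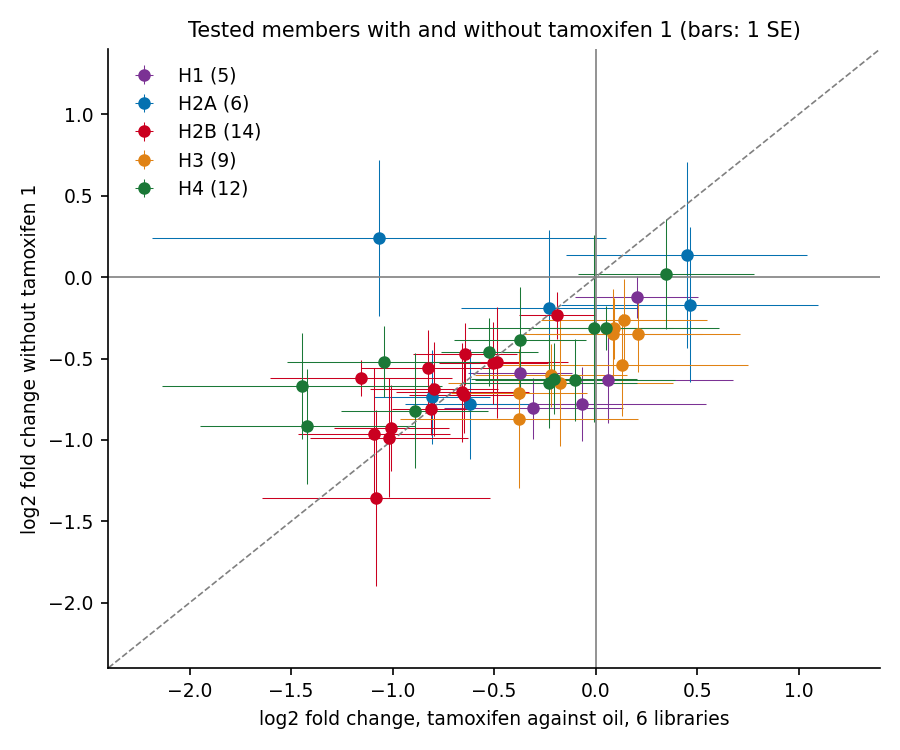
Log2 fold change of each of the 46 tested members, tamoxifen against oil, over all 6 libraries (horizontal) and without tamoxifen 1 (vertical), coloured by family with bars of 1 SE; the dashed line marks equal values. H2B members lie below 0 on both axes, with Hist2h2be above the line (-1.16 and -0.62), while H1 and H3 members lie below the line and below 0 without tamoxifen 1.

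The 3 smallest p values were those of H2B genes. Core histone H2B pairs with H2A at the outer faces of the nucleosome. All 14 tested H2B members had a log2 fold change below 0, with a median of -0.80, and 9 of them an unadjusted p under 0.05. Hist1h2bj (chr13:22043214-22043676) had the smallest p of all members, with values of 185, 221 and 232 in oil and 120, 121 and 119 in tamoxifen. Its groups were far apart and its tamoxifen libraries nearly equal, with a log2 fold change of -0.81 (SE 0.19, adjusted p = 0.666) that stayed at -0.81 without tamoxifen 1. Hist1h2bb, whose promoter is printed above, stood at 54.8, 75.3 and 83.6 in oil and 30.7, 32.3 and 40.9 in tamoxifen. Again no tamoxifen library reached the oil range (log2 fold change -1.01, SE 0.28). Hist1h2bp, the third by p, was low, at 13.5, 22.2 and 18.6 against 6.39, 10.1 and 7.28 (log2 fold change -1.09, SE 0.37).

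Hist2h2be (chr3:96221119-96223738) was the most abundant H2B member, and no stem-loop was found in its searched transcript. It was at 703, 740 and 734 in oil and 153, 521 and 427 in tamoxifen. All 3 tamoxifen libraries were lower, tamoxifen 1 by far the most, and the log2 fold change was -1.16 (SE 0.45, unadjusted p under 0.05) over 6 libraries and -0.62 without tamoxifen 1. Hist1h2bc (chr13:23684199-23692908), the second most abundant, had the log2 fold change nearest to 0 of the tested H2B genes. It stood at 366, 349 and 280 in oil and 307, 289 and 272 in tamoxifen, which overlap, with a log2 fold change of -0.19 (SE 0.19, adjusted p = 0.668). After correction for GC content this turned to 0.025.

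In 4 of 5 tested H1 genes tamoxifen 1 was the highest library, against 41.1% of all tested genes. Linker histone H1 binds the DNA that enters and leaves the nucleosome. Hist1h1c (chr13:23738808-23740367) stood at 2290, 3149 and 2513 in oil and 4748, 2245 and 2585 in tamoxifen. Only tamoxifen 1 left the oil range at the top, and only tamoxifen 2, narrowly, at the bottom. The log2 fold change was 0.20 (SE 0.30, adjusted p = 0.745) over 6 libraries and -0.12 without tamoxifen 1, so its direction rested on that library.

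Hist1h1e was at 245, 505 and 465 in oil and 1056, 248 and 251 in tamoxifen, and Hist1h1d at 190, 341 and 292 against 686, 164 and 146. In both genes tamoxifen 1 lay above every other library, while tamoxifen 2 and tamoxifen 3 lay close to or below the lowest oil library. Their log2 fold changes of 0.06 (SE 0.62) and -0.07 (SE 0.61) over 6 libraries became -0.63 and -0.78 without tamoxifen 1. Hist1h1e shares bases on the same strand with Hist1h2be, so their reads may not be separable. Hist1h1b was the exception, at 216, 282 and 272 in oil and 266, 175 and 164 in tamoxifen, with tamoxifen 1 inside the oil range. Hist1h1a and Hist1h1b had log2 fold changes of -0.31 and -0.37, which were -0.80 and -0.59 without tamoxifen 1.

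H3 genes were likewise divided between tamoxifen 1 and the other libraries of its group. H3 and H4 form the tetramer at the core of the nucleosome. In all 9 tested H3 members tamoxifen 1 was the highest of the 6 libraries, against 41.1% of all tested genes. In all 9 the log2 fold change was below 0 without that library, against 6791 of all 12298 tested genes. Hist1h3c, the most abundant by value, was at 225, 335 and 292 in oil and 344, 178 and 164 in tamoxifen (log2 fold change -0.38, SE 0.34, and -0.71 without tamoxifen 1). Hist1h3e was at 124, 286 and 238 against 564, 120 and 163, and Hist1h3a at 154, 217 and 168 against 262, 104 and 131. The H3 median of 0.09 over 6 libraries was -0.31 after correction for GC content and -0.54 without tamoxifen 1, so no direction is given for the family over 6 libraries.

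H4 genes divided into members that were highest in tamoxifen 1 and members that were lowest there, 5 of each among 12 tested. That split was near the one over all tested genes, of which 41.1% were highest and 41.6% lowest in tamoxifen 1. Hist1h4i (chr13:22040636-22041362), the most abundant, was at 642, 724 and 716 in oil and 1186, 647 and 482 in tamoxifen (log2 fold change 0.05, SE 0.33, adjusted p = 0.943). Hist1h4d stood at 176, 189 and 138 against 258, 87.9 and 132, and Hist2h4 at 87.1, 151 and 142 against 240, 82.8 and 75.5. In these 3 genes tamoxifen 1 was above every other library. Hist1h4a had tamoxifen 1 lowest, at 37.7, 41.5 and 37.1 in oil and 6.39, 29.3 and 13.6 in tamoxifen, with no overlap (log2 fold change -1.42, SE 0.53). Hist1h4m (35.9, 50.2 and 29.7 against 3.83, 27.3 and 20.0) and Hist1h4n (87.1, 124 and 95.6 against 23, 64.7 and 76.4) also had tamoxifen 1 lowest and no overlap, but share 85.8% and 77.2% of their windows with other genes. Hist1h4k, 1 of 2 tested H4 genes with a log2 fold change above 0, had the smallest p of all members above 0 (log2 fold change 0.35, SE 0.43, adjusted p = 0.704).

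**Figure D5:**
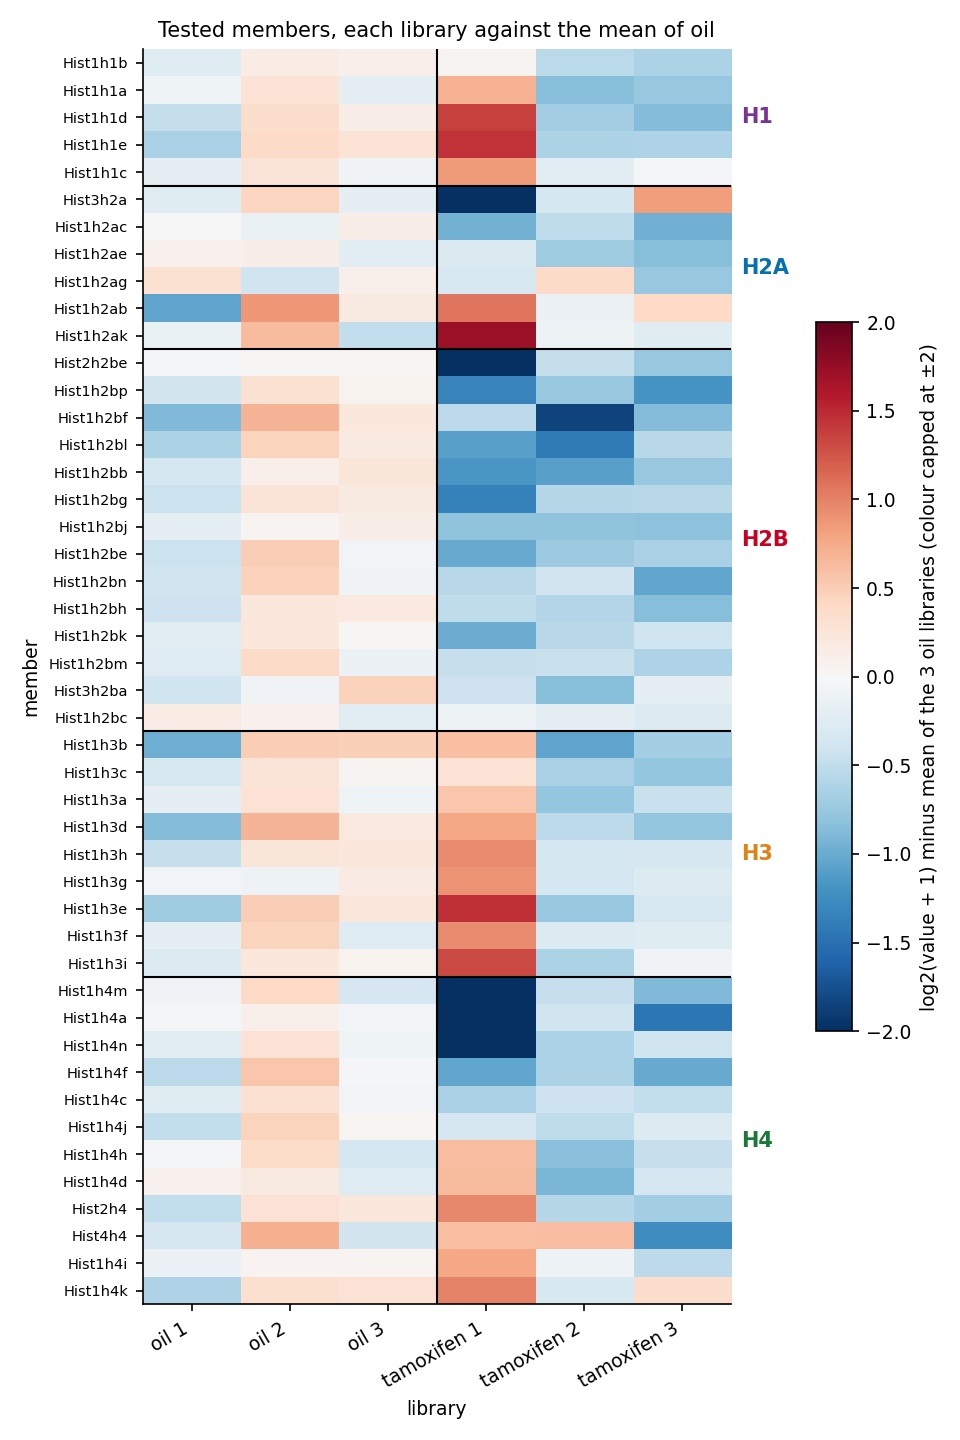
Colour shows log2(value + 1) of each tested member (rows, by family and fold change) in each library (columns) minus the mean of the 3 oil libraries. The column of tamoxifen 1 is red for H1 and H3 and blue for H2B, and divides within H4, while tamoxifen 2 and tamoxifen 3 are mostly blue in all families.

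H2A genes were the least measurable family, with 6 of 20 members tested. H2A genes are rich in GC (median 68.8% of coding bases against 62.6% in H2B and 59.4% in H1) and share a median of 58.9% of their windows with other genes. Hist1h2ac, the most abundant, was at 37.7, 34.7 and 41.8 in oil and 19.2, 26.3 and 19.1 in tamoxifen, with no overlap (log2 fold change -0.81, SE 0.29). Hist1h2ae was at 25.2, 26.0 and 20.4 against 19.2, 14.1 and 12.7, also apart. Hist1h2ab (5.39, 23.2 and 13.9 against 26.8, 11.1 and 16.4) and Hist1h2ak (9.88, 17.4 and 7.43 against 38.3, 10.1 and 9.09) had log2 fold changes of 0.45 and 0.46 that rested on tamoxifen 1, being 0.14 and -0.17 without it. Genes annotated on the opposite strand overlap several H2A members, Hist1h2ac, Hist1h2ae, Hist1h2ab and Hist1h2ak among them.

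Low p values were found among members of each kind of annotated 3′ end. All counts at p under 0.05 in this paragraph are of lower members, to be set beside 1.24% of all tested genes. Of 33 tested members with a stem-loop, 8 had an unadjusted p under 0.05 and the median log2 fold change was -0.38. Of 6 tested in which no stem-loop was found, 3 had such a p, with a median of -0.70. Of 7 with no searchable stretch, 1 did, with a median of 0.09. These classes rest on exact matches in 1 annotated transcript per gene, so a member without a match may still have a stem-loop. Members with a poly(A) signal at the annotated end had a median of -0.48 (13 tested, 4 at p under 0.05) and those without a median of -0.37 (33 tested, 8). Without tamoxifen 1 the medians were -0.62 and -0.60. These are descriptions of unequal groups with no test of the difference. Members with at most 10% of windows shared, whose reads are the least ambiguous, had a median of -0.37 (17 tested, 5 at p under 0.05), next to -0.38 for the other 29 (7 at p under 0.05).

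By position, the median log2 fold change was -0.44 in the first block of chromosome 13 (12 tested), -0.44 in the second (4 tested) and -0.31 in the third (25 tested), and -0.52, -0.39 and -0.65 without tamoxifen 1. Both tested members on chromosome 3, Hist2h2be and Hist2h4, lay below 0. Of the 12 members at an unadjusted p under 0.05, 11 had a matched promoter. Of these 11, 10 held CCAAT, 7 TATAAA and 4 the octamer, at any position on either strand. Over all 61 matched members the counts were 52, 35 and 13.

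Genes that act on histone mRNA or in S phase were taken from fixed lists, and every gene named from them had an adjusted p of 0.666 or more. Of 17 genes of histone mRNA transcription and 3′ end processing, all tested, none had an unadjusted p under 0.05 in either direction, 12 lay below 0, and the median was -0.26 over 6 libraries and -0.06 without tamoxifen 1. Slbp, which binds the stem-loop, was at 1982, 2200 and 2446 in oil and 859, 2218 and 1802 in tamoxifen (log2 fold change -0.54, SE 0.35, and -0.14 without tamoxifen 1). Npat, the coactivator of histone gene transcription in S phase, was at 869, 966 and 1042 against 389, 985 and 878 (log2 fold change -0.46, SE 0.36, and -0.04). Both genes were lowest in tamoxifen 1, while tamoxifen 2 lay within the oil range. The other genes with the smallest p were Ncbp2, a cap-binding subunit (log2 fold change -0.61, SE 0.42), and Eri1, an exonuclease that trims the stem-loop end (-0.40, SE 0.28).

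Of 26 S phase genes, all tested, none had an unadjusted p under 0.05, with 16 below 0 and a median of -0.06 (-0.08 without tamoxifen 1, where 1 gene was higher at p under 0.05, a share below that of all genes). Ccne1, which encodes cyclin E1, was at 346, 346 and 412 in oil and 630, 452 and 445 in tamoxifen (log2 fold change 0.45, SE 0.21), a difference with no overlap in the higher direction. Ung, a uracil glycosylase, had a log2 fold change of 0.74 (SE 0.39) and Rrm1, the large subunit of ribonucleotide reductase, of -0.40 (SE 0.24). The S phase list thus had a median near 0 where the core histone members had -0.48, and no test of that difference was made.

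Of 16 histone chaperones and carriers, all tested, none had an unadjusted p under 0.05, and the median was -0.06. Without tamoxifen 1 it was -0.02. Then 1 of the 16 was lower and 1 higher at p under 0.05, against 6.06% and 6.04% of all tested genes. Over all libraries the smallest p values were those of Ipo4, an importin that carries H3 and H4 (544, 547 and 588 in oil against 1237, 675 and 685, log2 fold change 0.57, SE 0.26), Daxx (0.37, SE 0.25) and Hat1, a histone acetyltransferase (-0.71, SE 0.49). Of 11 genes listed as histone variants with polyadenylated transcripts, 9 were tested and none had an unadjusted p under 0.05, with a median of 0.02. Without tamoxifen 1 their median was -0.22 and 4 of the 9 were lower at p under 0.05, against 6.06% of all tested genes. Cenpa, the H3 variant of centromeres, was at 3420, 3562 and 3417 in oil and 3198, 2688 and 2244 in tamoxifen, without overlap (log2 fold change -0.37, SE 0.17). H2afz, the H2A.Z gene, had a log2 fold change of -0.60 (SE 0.33) that was -0.22 without tamoxifen 1, and H1f0, the linker histone of cells that have left the cycle, one of -0.29 (SE 0.18).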

How the data were processed

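Gene expression was measured by paired-end RNA-seq in 6 libraries (3 labelled oil, 3 labelled tamoxifen). Per the labels and the study's methods, reads were aligned with STAR to mm10 and processed with DESeq2. Versions, annotation, strand setting and treatment of multiply mapped reads are not given in the sources used here. The deposited values, called signal here, are gene counts that the authors divided by a size factor per library. Every value lay within 0.01 of a whole multiple of the smallest value above 0 of its library, so whole reads were recovered (100% of values). In tamoxifen 2 that step is 1.01, so its values lie close to whole numbers anyway and test this less sharply. Rows without a gene name (1832 of 55450) held 0.0400% to 0.0614% of reads and stayed out of tests.

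The members, gene lists and tests were chosen with earlier results of these data known. Genes with a value of at least 10 in at least 3 libraries (12298) were fitted with limma 3.58.1 (R 4.3.3, trended eBayes) on log2(value + 1), a scale that understates changes of low genes, and p-values were adjusted by Benjamini-Hochberg over all of them. edgeR 4.0.16 and DESeq2 1.42.0 on recovered reads were alternatives. An exact permutation test of 3 against 3 cannot go below 0.1. On simulated counts (dispersion 0.05, 200 of 12298 genes changed by 2 on the log2 scale) limma recovered 98.5% of changed genes, with 13 false calls. Log2 fold changes of the tested members were smaller (-1.45 to 0.46), so this does not show how many of them limma could find. Replicate numbers did not pair the samples (correlations of same-numbered libraries -0.02, 0.06 and -0.15). Intervals and limits cover counting error only.

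Annotation and sequences came from GENCODE vM21 and RefSeq, both on GRCm38, and 52048 named rows matched by name. Named genes were Hist1h1c, Hist1h2bc, Slbp, Npat, the 3 most abundant members of each family, the 3 tested members with the smallest p in each direction and the 3 genes with the smallest p of each list. Other members were named after their values were seen.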

Additional observations from a re-analysis of the deposited data

How the results depend on the processing

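The core median stayed below 0 in every alternative and moved by less than the spread between replicates (SD 0.22). The linker median, with a wide spread (SD 0.64), had no stable sign: from -0.07 it went to 0.28 with edgeR, 0.27 with DESeq2, 0.25 without tamoxifen 2, 0.31 without tamoxifen 3, -0.68 with library weights and -0.63 without tamoxifen 1. The count past an adjusted p of 0.05 stayed at 0 except with library weights (10) and with DESeq2 without tamoxifen 1 (3). The count of members at an unadjusted p under 0.05, 12 in the report, was 6 with the replicate block (0.764% of all genes were lower at that p), 6 without a filter on low values (1.30%), 32 with library weights (12.4%) and 22 with edgeR without tamoxifen 1 (4.69%), and ran from 2 to 26 when each library was left out in turn (2 without oil 2 or without oil 3, against 0.228% and 0.333% of genes, 7 without tamoxifen 2 or without tamoxifen 3, against 3.72% and 1.12%, 9 without oil 1, against 0.317%, 26 without tamoxifen 1, against 6.06%). All these members were lower. With the replicate block, all 6 were lower and the medians were as without it. The count of members with groups that do not overlap, 17, ran from 17 to 28 when a library was left out. It was highest without tamoxifen 1. The 17 and the 28 were all lower, against 8.26% and 14.3% of genes. Lower members numbered 23 without oil 1, 17 without oil 2, 18 without oil 3, 19 without tamoxifen 2 and 21 without tamoxifen 3. A further 1 was higher without oil 1, oil 3, tamoxifen 2 or tamoxifen 3. For these settings no share over all genes is given, so they are not read further. Hist1h1c, 0.20 over 6 libraries, was 0.011 with GC correction, -0.11 with library weights and with edgeR without tamoxifen 1 and -0.12 with DESeq2 without it, and ran from -0.12 to 0.42 when a library was left out. Hist1h2bc, -0.19, was 0.025 with GC correction, with or without the block, and ran from -0.31 to -0.12 when a library was left out. The cause of these shifts was not tested. The alternatives without tamoxifen 1 by edgeR and DESeq2 were chosen after seeing the data. Members under 10 reads in total, most of them H2A genes, were not measurable at this depth.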
